A study of Saccharomyces cerevisiae with 30 samples.

Results

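The comparison sets total mRNA of *ime4-cat*/*ime4-cat* cells (strain GBy225) against total mRNA of *rme1-10*/*rme1-10* cells (strain GBy557), with 3 libraries of each, or 6 of the 30 samples in the series. All genes in the count tables entered it. The strain number and the fraction letter that identify each count table chose the libraries, and no measured value did. GBy225 carries *ime4-cat*, whose protein is made but has point changes in its catalytic site, so that no mRNA can be methylated by it, and its *RME1* gene is *rme1-S288C*. GBy557 has wild-type *IME4* and differs from *rme1-S288C* by the *rme1-10* change alone, which removes a single methylation site. Both are SK288C diploids (MATa/MATα), homozygous for these alleles as well as for the highly expressed *rme1-S288C* promoter, variant alleles of *TAO3* and *MKT1*, and for *his3Δ1*, *leu2Δ0*, *lys2Δ0* and *ura3Δ0*. Both were harvested at 5 h in SPO media, a starvation medium with potassium acetate that starts meiosis, and poly(A) mRNA was taken from the lysate before it was put on a sucrose gradient. The 3 libraries of a strain were described as biological replicates.

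The sample titles give another genotype for these 6 libraries. The titles call the 3 GBy225 libraries wild-type input and the 3 GBy557 libraries *ime4-cat* input, while the strain table of the study gives GBy225 as *ime4-cat* and GBy557 as *rme1-10*. Titles and strain numbers sort the libraries into the same sets of 3 and name the same fraction. Only the genotype is in conflict, and by the titles every fold change below would be wild type over *ime4-cat*. The genotypes used here are those of the strain numbers. Deleted markers cannot tell the strains apart, because both lack them. *LEU2*, *LYS2* and *URA3* had 0 counts in all 6 libraries. *HIS3*, also given as deleted (*his3Δ1*), did have counts, with 337, 189 and 106 in GBy225 and 152, 143 and 574 in GBy557. The cause of the *HIS3* counts was not tested.

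Methylation of adenosine in mRNA (m6A) is made in yeast by a complex around Ime4p during meiosis. Rme1p is a repressor of *IME1*, the transcription factor gene that starts the meiotic program, and *RME1* mRNA is itself a target of the methyltransferase. Ime1p acts at early meiotic promoters through Ume6p, which binds the URS1 element, and the kinase Ime2p and the transcription factor Ndt80p drive the later steps. Early genes serve premeiotic DNA replication, pairing and recombination, and middle genes serve the divisions and spore formation. The comparison therefore asks how loss of all methylation differs, across the transcriptome, from loss of the *RME1* site.

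The site that distinguishes GBy557 lies in the 3′ UTR of *RME1* (YGR044C, chromosome VII, 582990 to 583892, minus strand, R64 build). It is shown because it is the only designed difference at *RME1* between the strains. The capital marks the methylated A at position 582861, downstream of the stop codon, and the stretch runs over positions 582847 to 582875. The sequence is that of RefSeq R64, and *rme1-10* carries A129T, counted from the stop codon.
*RME1* site: gcatgcaactatggAcacttgctatgtcg

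The early meiotic and sulfur promoters below are shown because genes of these groups differed between the strains. Capitals mark the hexamer GGCGGC or its reverse complement GCCGCC, the core of URS1 to which Ume6p binds, or CACGTG, the Cbf1p site of sulfur genes, all written on the strand of the gene. Each stretch is RefSeq R64 sequence before the start codon.
*HOP1* (chromosome IX, 226419 to 226448): gtttttaacctgGGCGGCtaaattgtactt
*MEI5* (chromosome XVI, 321739 to 321768): gaaaaagtattaGCCGCCcaaacttctatg
*REC8* (chromosome XVI, 571545 to 571574): gaacttgacttcGGCGGCaaaccaatatat
*SPO16* (chromosome VIII, 402753 to 402782): gcgtgaaaagtgGGCGGCtaaaaccgagaa
*IME2* (chromosome X, 220923 to 220952): gcgcgagacttcGGCGGCaaaaagccacag
*MET17* (chromosome XII, 732230 to 732259): aatggcaaatggCACGTGaagctgtcgata

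Depth was 1494513 to 6009889 counts on genes per library, the highest in GBy557 replicate 3. Replicate 3 of GBy225 stood apart from the other 5 libraries. Its log2 CPM (CPM is the count scaled to equal library size after TMM normalization) correlated with theirs at 0.88 to 0.90 across genes, whereas the other 5 correlated with each other at 0.94 to 0.99. In it 23 genes had 0 counts that had at least 10 CPM in each of the other 5 libraries, of 5438 such genes, and no other library had such a gene. At an equal depth of 1494513 counts, 5966 genes had a count in it, against 6356 to 6395 in the others. Its total of 1549820 counts was within the range of the other libraries. The cause was not tested. Results for most gene lists are given with and without this library, while those of some single genes are given with all 6 libraries only. None of 8 haploid-specific and 10 mating-type genes tested was called with the 6 libraries, at an unadjusted p under 0.05, with DESeq2 or without GBy225 replicate 3.

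With all 6 libraries, 10 genes rose and 7 fell in GBy225 relative to GBy557 among 5898 tested, at an adjusted p under 0.05 (edgeR quasi-likelihood test, Benjamini-Hochberg), which is 0.17% and 0.119% of the genes. Without GBy225 replicate 3, 321 genes rose and 382 fell among 5962 tested, or 5.38% and 6.41%, and all 17 genes called with the 6 libraries were among them. The common biological coefficient of variation was 0.198 with that library and 0.13 without it. Leaving out any of the other 5 libraries left at most 1 call. With all 6 libraries, 8.36% of genes were higher and 8.6% lower at an unadjusted p under 0.05, and DESeq2 called 3.22% higher and 2.34% lower. The DESeq2 shares are of all 5898 genes, including 1944 to which it gave no adjusted p. Among genes with an adjusted p its shares would be larger, so excesses over 3.22% and 2.34% are partly due to this. The counts given below for gene lists under these rules are to be read against those shares. Before any test, all 3 GBy225 libraries lay above all 3 GBy557 libraries for 11.2% of genes and below them for 13.4%. In these bulk samples, fewer cells in a given state and less RNA per cell cannot be told apart.

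**Figure D1:**
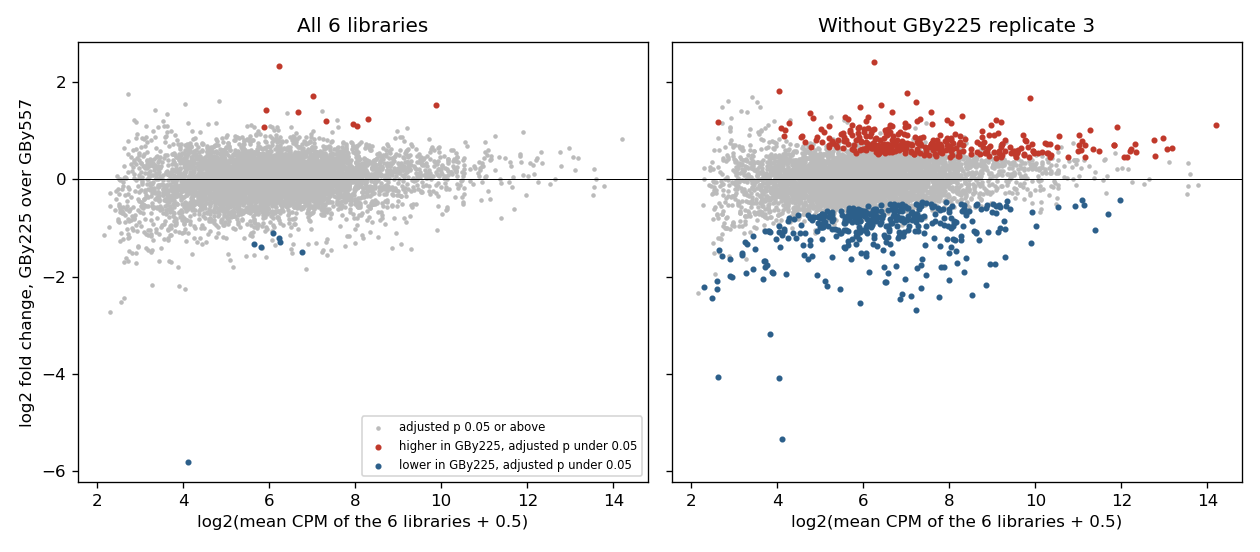
Log2 fold change of GBy225 over GBy557 (vertical) against log2 of the mean CPM of the 6 libraries plus 0.5 (horizontal), 1 point per gene tested, with all 6 libraries (left) and without GBy225 replicate 3 (right). Red points are higher and blue points lower in GBy225 at an adjusted p under 0.05. Both panels draw only genes that were tested with all 6 libraries. The left panel holds 17 such genes. The right panel holds 321 higher and 380 lower genes, which spread over both sides of 0 at all levels.

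Replicate 3 took no part in the calls made without it, but those calls used the same 3 GBy557 libraries that it is set against here. Part of any excess over the share of all genes is therefore built in, so the shares below are a description. Of the 321 genes called higher without it, 197 (61.4%) were above all 3 GBy557 libraries in replicate 3, against 36.7% of all genes tested. Of the 380 genes called lower that were tested in both fits, 245 (64.5%) were below all 3 GBy557 libraries in it, against 40.6% of all genes. For these lower genes the median difference from the GBy557 mean on the log2 scale was -0.91, -0.88 and -0.34 in GBy225 replicates 1, 2 and 3. For the called genes the third library mostly lay on the same side and closer to GBy557. These genes were chosen by replicates 1 and 2, which by itself makes replicate 3 look closer.

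*RME1*, the mRNA with the differing site, was at 180.1, 208.1 and 237.6 CPM in GBy225, against 169.4, 136.6 and 133.3 CPM in GBy557. The 3 GBy225 libraries were all above the 3 GBy557 libraries. The difference did not pass the test (log2 fold change 0.51, SE 0.17, adjusted p = 0.178 by edgeR), and an exact two-sided permutation test gave p = 0.1, the smallest that 3 against 3 allows. Without GBy225 replicate 3 the log2 fold change was 0.41 (adjusted p = 0.12).

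*IME4*, the methyltransferase gene that carries the change in GBy225, was at 108.1, 72.4 and 119.4 CPM in GBy225 and at 131.1, 184.9 and 166.0 CPM in GBy557. The groups did not overlap, and the difference was not called with the 6 libraries (log2 fold change -0.69, SE 0.22, adjusted p = 0.167 by edgeR) but was without GBy225 replicate 3 (-0.83, adjusted p = 0.0351). The whole of *IME4* is overlapped by the antisense RNA gene *RME2*, and the strand setting of the counting is not given in the sources used here, so reads of the 2 genes cannot be told apart. Point mutations leave the *IME4* mRNA countable, so its level does not check the labels.

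All 5 genes of the list of the methyltransferase complex and its reader had log2 fold changes below 0. *SLZ1*, a non-catalytic subunit, had 271.3, 188.9 and 450.4 CPM in GBy225 against 684.2, 787.0 and 828.3 CPM in GBy557, without overlap. *MUM2*, the other subunit, had 181.9, 165.2 and 260.5 CPM in GBy225 against 329.3, 326.9 and 356.1 CPM in GBy557. *PHO92*, the gene of the m6A reader (*MRB1*), had 86.2, 82.0 and 224.0 CPM in GBy225 against 228.3, 200.7 and 217.1 CPM in GBy557. Only in replicate 3 did *PHO92* reach the GBy557 range. None of the 5 genes of this list was called with the 6 libraries and 3 had an unadjusted p under 0.05, all lower, against 8.6% of all genes. All 5 fell in the fit without GBy225 replicate 3, *SLZ1* the most (log2 fold change -1.73, SE 0.18), while DESeq2 called 2 with all 6 libraries.

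*IME1* and *IME2* split the GBy225 libraries. *IME1* was at 351.6, 377.1 and 803.7 CPM in GBy225, against 701.4, 738.7 and 782.3 CPM in GBy557. GBy225 replicate 3 was the highest of all 6 libraries for *IME1*, and the other 2 were the lowest. *IME2* was at 200.6, 201.7 and 543.8 CPM in GBy225, against 660.5, 656.4 and 709.3 CPM in GBy557, so that all 3 GBy225 libraries were below. With the 6 libraries neither was called (log2 fold change -0.54, SE 0.29, adjusted p = 0.386 for *IME1*; -1.10, SE 0.36, adjusted p = 0.172 for *IME2*, by edgeR). Without replicate 3 both fell, by 1.03 on the log2 scale for *IME1* (adjusted p = 0.00154) and by 1.75 for *IME2* (adjusted p = 1.53e-04).

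*RIM4*, an RNA-binding protein of meiosis that is among the most abundant mRNAs of its list, had 1448, 1845 and 2561 CPM in GBy225 against 3223, 3285 and 3610 CPM in GBy557. It fell in the fit without replicate 3 (log2 fold change -1.04, adjusted p = 0.00221), as did *UME6*, the gene of the URS1-binding protein (-0.76, adjusted p = 0.0257). The other 14 of the 18 regulators of meiotic entry were called in neither fit, and the median log2 fold change of the list was 0.04 with all 6 libraries. With these, 1 regulator was higher and 2 lower at an unadjusted p under 0.05, near the 8.36% and 8.6% of all genes, and DESeq2 called 2 lower, against 2.34% of all genes.

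**Figure D2:**
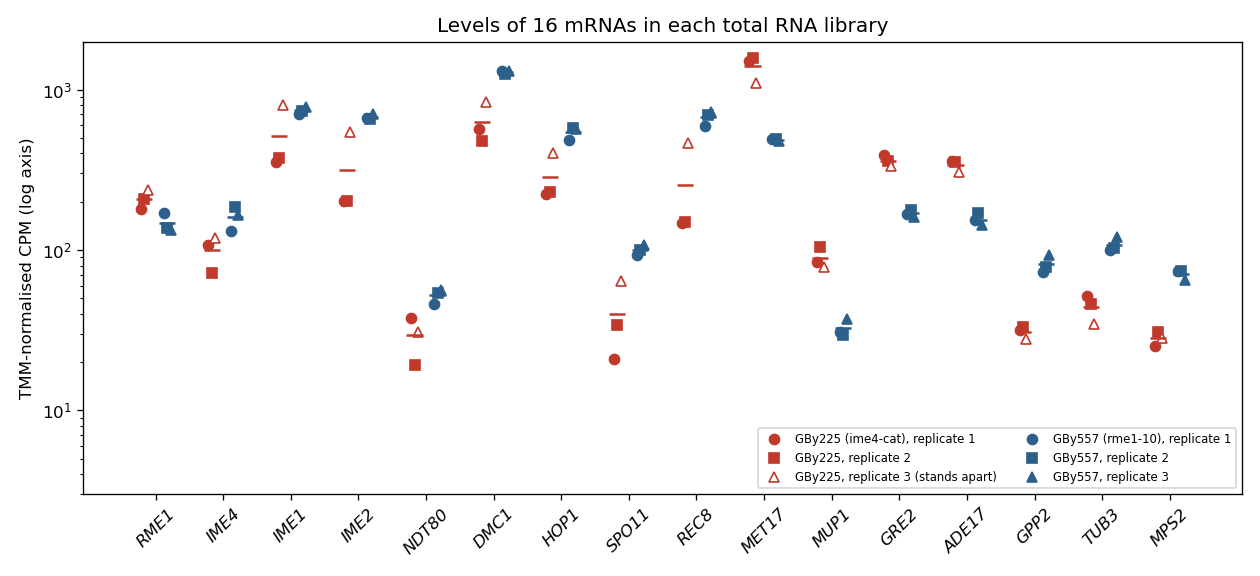
TMM-normalised CPM on a log axis of 16 mRNAs in each total RNA library, with GBy225 (red) left of GBy557 (blue), shapes for replicates, an open triangle for GBy225 replicate 3 and a line at the mean of the 3 libraries. For *IME1*, *IME2*, *DMC1*, *HOP1*, *SPO11* and *REC8* the open triangle lies above the other GBy225 libraries, whereas for *GRE2*, *ADE17*, *GPP2*, *TUB3* and *MPS2* the 3 GBy225 libraries lie together and apart from GBy557.

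The 4 lists of early meiotic genes had the lowest medians with the 6 libraries. Without GBy225 replicate 3 the double-strand break list (-0.84) lay above the methyltransferase list (-0.97). Of 53 genes for strand exchange, double-strand breaks, the synaptonemal complex and the chromosome axis, 40 (75.5%) had all 3 GBy225 libraries below all 3 GBy557 libraries, against 13.4% of all genes tested, and none had them above. Their median log2 fold change was -0.96 with the 6 libraries, against 0.01 over all genes tested. None was called with the 6 libraries by edgeR or limma-trend, while 40 had an unadjusted p under 0.05, all lower, against 8.6% of all genes, and DESeq2 called 24 lower, against 2.34%. Without GBy225 replicate 3, 39 (73.6%) fell and none rose, with a median of -1.31. Relative to the GBy557 mean, the median of these genes was -1.20, -1.34 and -0.43 on the log2 scale in GBy225 replicates 1, 2 and 3. These 53 promoters were searched for GGCGGC on both strands in the 500 bases before the start codon, and 22 held it (41.5%), against 9.54% of 5524 genes tested. Among the 365 genes with a promoter that fell without replicate 3, 23.8% held it. In the acetate use list, with a median log2 fold change of 0.16 with the 6 libraries, the share was 40.9%. A match to these letters is a description of the sequence.

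Strand exchange genes repair meiotic breaks from the homologous chromosome. *DMC1*, the meiotic recombinase, had 565.4, 477.7 and 835.9 CPM in GBy225, against 1314, 1248 and 1312 CPM in GBy557. Even the highest GBy225 library was well below the lowest of GBy557 (log2 fold change -1.04, SE 0.20, adjusted p = 0.0774 with the 6 libraries, and -1.31, SE 0.13, adjusted p = 4.45e-04 without replicate 3). *MEI5*, a partner of *SAE3* in loading Dmc1p, had 40.6, 23.7 and 86.6 CPM in GBy225 against 168.2, 178.0 and 194.0 CPM in GBy557, without overlap. It had the largest fall of the list without replicate 3 (-2.46, SE 0.22). *HOP2*, whose product works with Mnd1p in homologue pairing, had 70.2, 54.4 and 117.6 CPM in GBy225 against 235.9, 207.6 and 224.1 CPM in GBy557. Of the 12 genes in the list, 8 fell without replicate 3 and 6 were lower by DESeq2 with all libraries.

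Genes for double-strand breaks start recombination. *SPO11*, the enzyme that cuts, had 21.0, 33.9 and 64.3 CPM in GBy225, against 92.7, 100.1 and 108.0 CPM in GBy557. *REC104*, a subunit of the Spo11p core complex, had 33.7, 27.5 and 13.0 CPM in GBy225 against 84.4, 61.2 and 77.1 CPM in GBy557, and here replicate 3 was the lowest library. *REC114*, a partner of *MEI4*, had 81.2, 89.6 and 84.1 CPM in GBy225 against 122.8, 137.1 and 129.3 CPM in GBy557, with the GBy225 libraries close together. Of the 12 genes, 9 did not overlap between the strains, all lower in GBy225, and 7 fell without replicate 3, among them *MEI4* (log2 fold change -2.25, SE 0.19). The median of this list in replicate 3 was -0.67 relative to GBy557, near the -0.77 and -0.84 of GBy225 replicates 1 and 2.

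The synaptonemal complex and crossover list had the lowest median of all lists, at -1.08 with the 6 libraries and -1.64 without replicate 3. *ECM11*, a component of its central element, had 34.2, 34.6 and 166.4 CPM in GBy225, against 220.6, 206.6 and 233.2 CPM in GBy557. *ECM11* fell the most of the list without replicate 3 (log2 fold change -2.68, SE 0.16), and replicate 3 lay far above the other GBy225 libraries. *ZIP1*, the transverse filament, had 88.5, 96.0 and 246.9 CPM in GBy225 against 279.4, 350.6 and 338.5 CPM in GBy557. *SPO16*, a crossover factor, had 33.3, 29.4 and 79.8 CPM in GBy225 against 154.1, 124.3 and 130.2 CPM in GBy557. Of the 14 genes, 12 fell without replicate 3, including both genes of the Msh4p-Msh5p dimer (-2.11 and -1.76), and 8 were lower by DESeq2 with all libraries.

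The axis, cohesin and monopolin genes organize meiotic chromosomes and their attachment. *REC8*, the meiotic cohesin subunit, had 147.7, 149.8 and 462.8 CPM in GBy225, against 594.0, 694.3 and 723.9 CPM in GBy557. *HOP1*, an axis protein, had 224.8, 229.2 and 402.1 CPM in GBy225 against 483.4, 578.4 and 566.8 CPM in GBy557. In both, the GBy225 libraries were below those of GBy557 and replicate 3 was the nearest to them. Of the 15 genes, 12 fell without replicate 3, from *NDJ1* (log2 fold change -2.40) and *MEK1* (-2.37) to the cohesin subunits *SMC1* (-0.87) and *IRR1* (-0.80), which also serve mitosis. *SPO13*, needed for a single attachment of sister chromatids in meiosis I, fell by 1.92 on the log2 scale in that fit.

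*NDT80* was low in both strains, at 37.8, 19.2 and 30.9 CPM in GBy225 and at 46.0, 54.2 and 56.1 CPM in GBy557. The groups did not overlap, and the difference missed the threshold with and without replicate 3 (log2 fold change -0.82, adjusted p = 0.159; -0.84, adjusted p = 0.0611, by edgeR). Of 29 tested genes of *NDT80* and mid-sporulation, 10 fell without replicate 3. With all libraries the median was -0.63, edgeR called none, 10 were lower at an unadjusted p under 0.05 (8.6% of all genes) and DESeq2 called 2 lower (2.34% of all genes). *SPS4*, a sporulation gene, had 1.82, 1.28 and 14.2 CPM in GBy225 against 17.9, 26.6 and 34.3 CPM in GBy557. *DON1*, a protein of the prospore membrane edge, had 54.7, 41.0 and 42.7 CPM in GBy225 against 96.5, 82.8 and 93.8 CPM in GBy557, with replicate 3 inside the range of its group. *CRR1*, a spore wall gene, had 14.1, 12.2 and 9.90 CPM in GBy225 against 26.2, 33.0 and 31.9 CPM in GBy557. *SPS100*, a spore wall gene and the most abundant of the list, had 822.1, 1475 and 1457 CPM in GBy225 against 1075, 1922 and 1871 CPM in GBy557, and the strains overlapped (log2 fold change -0.38, SE 0.28). The antisense RNA gene *SUT169* overlaps 946 bases of *SPS100*, so reads of these genes cannot be told apart there.

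DNA replication genes were lower on balance. Of 56 genes, 14 fell and 3 rose without replicate 3 (25% and 5.36%, against 6.41% and 5.38% of all genes). The share that rose was thus that of all genes. The median with all libraries was -0.36. With all libraries edgeR called none, 3 were higher and 17 lower at an unadjusted p under 0.05 (8.36% and 8.6% of all genes), and DESeq2 called 3 higher and 8 lower (3.22% and 2.34%). *CDC7*, the kinase that fires origins, had 35.6, 33.9 and 47.0 CPM in GBy225, against 78.7, 78.9 and 84.7 CPM in GBy557. *POL1*, a polymerase subunit, had 57.0, 67.9 and 74.9 CPM in GBy225 against 123.4, 127.7 and 125.4 CPM in GBy557. Neither was called with the 6 libraries, at an adjusted p of 0.0644 each (edgeR), and both fell without replicate 3 (log2 fold changes -1.22 and -1.02). The ribonucleotide reductase genes moved in different directions in that fit. *RNR1*, the main large subunit, fell by 1.98 on the log2 scale, while *RNR2*, *RNR3* and *RNR4* rose by 0.49, 0.74 and 0.81.

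Histone genes had a median log2 fold change of -0.45 with the 6 libraries and -0.77 without replicate 3, and 6 of 10 fell in the fit without it. With the 6 libraries edgeR called none, 4 were lower at an unadjusted p under 0.05 (8.6% of all genes) and DESeq2 called 3 lower (2.34%). *HTB2*, a histone H2B gene, had 95.3, 81.3 and 237.6 CPM in GBy225, against 329.9, 303.8 and 290.2 CPM in GBy557. *HHF2*, a histone H4 gene, had 146.8, 133.8 and 251.2 CPM in GBy225 against 454.0, 353.6 and 364.2 CPM in GBy557. *HTA1*, a histone H2A gene, overlapped between the strains (882.8, 683.2 and 843.9 CPM in GBy225 and 1104, 769.3 and 776.3 CPM in GBy557). Histone genes come in near-identical pairs. Alignments that were not unique were tallied apart from the genes, and how many came from histone genes is not known, so single members are uncertain.

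**Figure D3:**
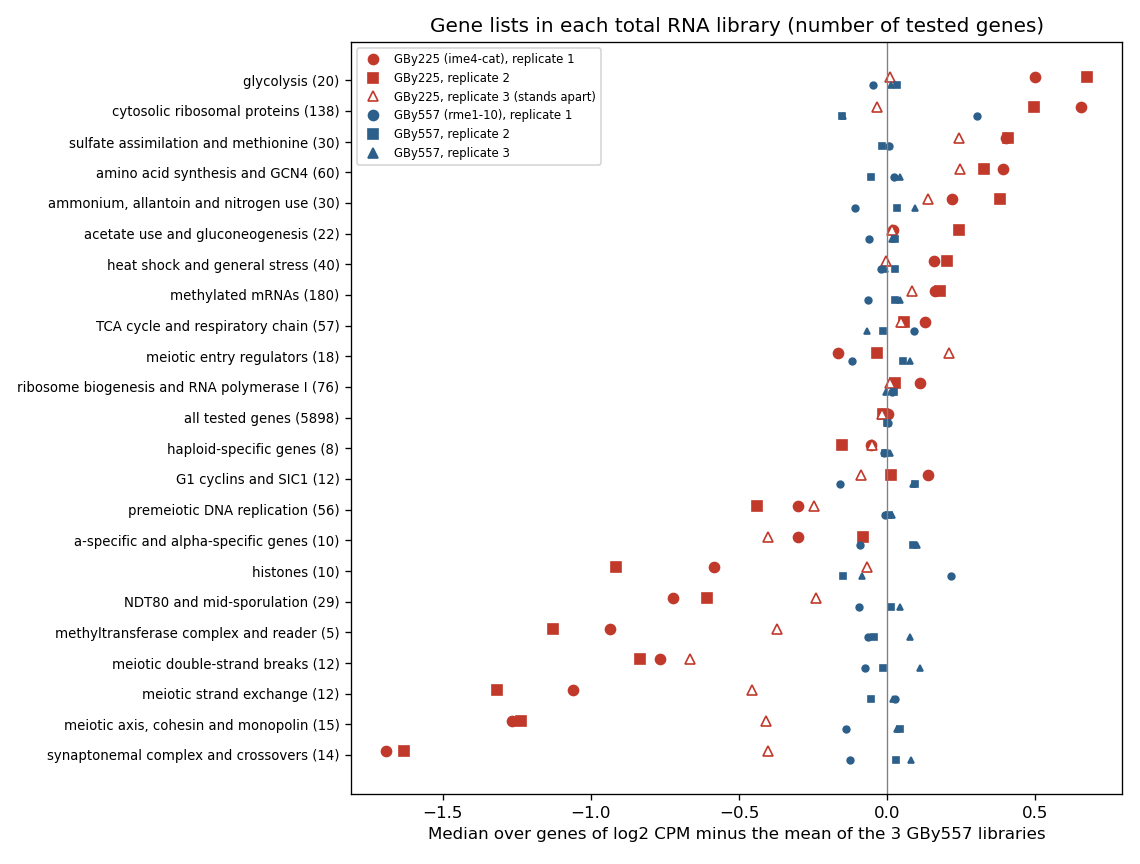
Median over the tested genes of each list (number in brackets) of log2 CPM minus the mean of the 3 GBy557 libraries, for the GBy225 libraries (red, upper row of each list) and the GBy557 libraries (blue, lower row). Filled shapes are GBy225 replicates 1 and 2 and the open triangle is replicate 3. In the synaptonemal complex list they stand at -1.69, -1.63 and -0.40, and over all tested genes near 0.

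Sulfur and methionine genes were higher in GBy225. *MET17* (YLR303W, chromosome XII, 732542 to 733876), the sulfhydrylase that makes homocysteine, had 1506, 1579 and 1096 CPM in GBy225, against 491.7, 490.7 and 479.7 CPM in GBy557. All 3 GBy225 libraries were far above GBy557, replicate 3 included, and *MET17* rose by 1.52 on the log2 scale (SE 0.16, adjusted p = 0.0227 by edgeR). *MUP1* (YGR055W), the high-affinity methionine permease, had 83.9, 103.7 and 78.6 CPM in GBy225 against 30.7, 29.6 and 37.2 CPM in GBy557 (log2 fold change 1.43, SE 0.19, adjusted p = 0.0338; 0.0508 in the fit with replicate numbers as a block). *SUL1*, a sulfate permease, had 619.2, 802.3 and 621.2 CPM in GBy225 against 321.0, 402.4 and 403.1 CPM in GBy557 and was not called with the 6 libraries (adjusted p = 0.076). Of the 30 genes of the list, these *MET17* and *MUP1* calls were the only ones with 6 libraries by edgeR, 28 had a fold change above 0, and 12 rose and none fell without replicate 3, *CYS3*, *SAM1* and *SAM2* among them (1.08, 0.82 and 0.69). The median was 0.37 with the 6 libraries and 0.44 without. CACGTG stood in the 500 bases before the start codon of 20 of the 30 (66.7%), against 6.34% of all genes tested.

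Amino acid synthesis genes had a median log2 fold change of 0.34, and most of those called were higher. *LEU4*, which starts leucine synthesis, had 3133, 3846 and 2563 CPM in GBy225, against 1717, 1734 and 1727 CPM in GBy557. *ILV2*, the acetolactate synthase, had 1008, 1278 and 949.7 CPM in GBy225 against 564.0, 620.4 and 652.0 CPM in GBy557. The strains did not overlap in either gene. None of the 60 genes was called with the 6 libraries (25 higher and 4 lower at an unadjusted p under 0.05, against 8.36% and 8.6% of all genes, and 14 higher and 1 lower by DESeq2, against 3.22% and 2.34%), and 20 rose and 1 fell without replicate 3. The gene that fell was *ARO9*, an aromatic aminotransferase (log2 fold change -1.08). *LEU1*, the most abundant of the list, overlapped between the strains (log2 fold change -0.09). The Gcn4p site TGACTC was in the 500 bases before the start codon of 68.3% of the list, against 13% of all genes tested.

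Nitrogen genes had a median log2 fold change of 0.27. *GAP1*, the general amino acid permease, had 4928, 5990 and 4372 CPM in GBy225, against 2084, 2876 and 2846 CPM in GBy557 (log2 fold change 0.97, SE 0.18, adjusted p = 0.0709 by edgeR). *DUR3*, the urea permease, had 101.7, 136.4 and 129.9 CPM in GBy225 against 42.8, 67.1 and 62.9 CPM in GBy557. *CAR1*, the arginase, had 400.3, 354.7 and 471.4 CPM in GBy225 against 749.4, 700.7 and 810.6 CPM in GBy557. *CAR1* was not called in the 6 libraries (adjusted p = 0.0643) and fell in the fit with replicate numbers as a block (adjusted p = 0.0394). Of 30 genes, none was called with the 6 libraries (7 higher and 3 lower at an unadjusted p under 0.05, against 8.36% and 8.6% of all genes, and 5 higher and 2 lower by DESeq2, against 3.22% and 2.34%), and 10 rose and 1, *CAR1*, fell without replicate 3.

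The medians of the glycolysis and cytosolic ribosomal protein lists were above GBy557 in GBy225 replicates 1 and 2 and near it in replicate 3. All 3 GBy225 libraries were above GBy557 for 35% of the 20 glycolysis genes and 17.4% of the 138 ribosomal protein genes, against 11.2% of all genes. *TDH3*, a glyceraldehyde-3-phosphate dehydrogenase gene, had 26570, 31740 and 13990 CPM in GBy225, against 13430, 13350 and 13930 CPM in GBy557. *PGK1*, a later step of glycolysis, had 8268, 9485 and 5496 CPM in GBy225 against 6344, 6417 and 6413 CPM in GBy557, so replicate 3 was below and the other 2 above GBy557. Of 20 glycolysis genes, 14 rose and none fell without replicate 3, and none was called with the 6 libraries (9 higher and none lower at an unadjusted p under 0.05, against 8.36% and 8.6% of all genes, and 5 higher by DESeq2, against 3.22%). The list's medians relative to GBy557 were 0.50, 0.67 and 0.01 in GBy225 replicates 1, 2 and 3. Cytosolic ribosomal protein genes gave 0.65, 0.50 and -0.03, and the 3 GBy557 libraries themselves stood at 0.30, -0.15 and -0.15. Of 138 such genes, 49 rose and none fell without replicate 3, and none was called with the 6 libraries (41 higher at an unadjusted p under 0.05, against 8.36% of all genes, and 14 higher by DESeq2, against 3.22%). *RPS18A* had 191.5, 176.7 and 112.6 CPM in GBy225 against 95.3, 82.3 and 87.5 CPM in GBy557. Most ribosomal protein genes have a near-identical copy. How many of their alignments were not unique, and so tallied apart from the genes, is not known. *ACT1*, the actin gene, overlapped between the strains (2047, 2127 and 1610 CPM in GBy225 and 1871, 1718 and 1711 CPM in GBy557; log2 fold change 0.13, SE 0.14).

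Ribosome biogenesis genes gave no such pattern, with a median of 0.02 over 76 genes and 1 rise and 1 fall without replicate 3. With the 6 libraries none was called by edgeR or DESeq2, and 3 were higher and 4 lower at an unadjusted p under 0.05. In the list of the citric acid cycle and respiratory chain, 1 of 57 genes, *MDH1*, fell in that fit (log2 fold change -0.56), and none was called with the 6 libraries (2 higher and 1 lower at an unadjusted p under 0.05, and 1 lower by DESeq2). Of 22 genes for acetate use, 5 rose and 1 fell without replicate 3, and none was called with the 6 libraries (5 higher and 1 lower at an unadjusted p under 0.05, against 8.36% and 8.6% of all genes, and 2 higher and 1 lower by DESeq2, against 3.22% and 2.34%). *IDP2*, a cytosolic isocitrate dehydrogenase, averaged 826.9 ± 45.3 CPM in GBy225 and 539.2 ± 35.1 CPM in GBy557 (SD, n = 3 each), without overlap. *ADY2*, the acetate transporter and the most abundant of that list, overlapped between the strains (11710, 15670 and 13100 CPM in GBy225 and 11520, 16040 and 16920 CPM in GBy557). Of 12 G1 regulators, *SWI4* alone was called, lower, without replicate 3 (-0.81), or 8.33% of the list against 6.41% of all genes.

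Stress genes moved both ways without replicate 3. *SPI1* (YER150W), a cell wall protein, had 198.8, 257.4 and 203.5 CPM in GBy225, against 109.3, 98.6 and 83.2 CPM in GBy557 and rose by 1.19 on the log2 scale (SE 0.18, adjusted p = 0.0432 by edgeR). *TSL1*, a subunit of trehalose synthase, had 724.5, 1000 and 654.0 CPM in GBy225 against 343.4, 423.1 and 380.8 CPM in GBy557 (log2 fold change 1.05, adjusted p = 0.0644, and 0.0394 with the replicate block). The chaperone *HSP82* had 2528, 2295 and 2932 CPM in GBy225 against 3514, 4171 and 4259 CPM in GBy557. Of 40 genes, 8 rose without replicate 3 and 4 fell (20% and 10%, against 5.38% and 6.41% of all genes). Those 4 (*HSP82*, *HSC82*, *YDJ1* and *SSA4*) are chaperone genes, while the disaggregase gene *HSP104* was among the 8. *SPI1* was the single edgeR call with the 6 libraries. With these, 10 were higher and 5 lower at an unadjusted p under 0.05 (8.36% and 8.6% of all genes). DESeq2 called 4 higher and 3 lower (3.22% and 2.34%). *HSP26*, the most abundant of the list, was level (log2 fold change -0.00, SE 0.15).

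The other genes called with the 6 libraries belonged to several functions, and in each the 3 GBy225 libraries lay on the same side of all 3 GBy557 libraries. *GRE2*, a methylglyoxal reductase, had 389.4, 357.3 and 331.6 CPM in GBy225, against 168.8, 177.5 and 160.2 CPM in GBy557 (log2 fold change 1.09, SE 0.14, adjusted p = 0.0338 by edgeR). *ADE17*, of the last steps of purine synthesis, had 358.8, 354.1 and 307.5 CPM in GBy225 against 152.8, 169.1 and 142.6 CPM in GBy557. *IST2*, a tether between the endoplasmic reticulum and the plasma membrane, had 377.5, 542.3 and 410.8 CPM in GBy225 against 173.9, 193.8 and 194.1 CPM in GBy557. *ADE17* rose by 1.14 and *IST2* by 1.24 on the log2 scale, and both stayed under the threshold with the replicate block. *MSA2*, a regulator of G1 transcription, had 81.6, 73.6 and 81.0 CPM in GBy225 against 33.9, 39.4 and 38.9 CPM in GBy557 (log2 fold change 1.07, adjusted p = 0.0432, and 0.0517 with the block). YOL150C rose by 1.39, YLR154W-E by 1.71 and YLR154W-F by 2.33. These 3 are not in the RefSeq annotation. YOL150C is next in number to *GRE2* (YOL151W), and the other 2 carry names of the ribosomal DNA array, where alignments are rarely unique, so whether they share reads with other genes was not tested.

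None of the 7 genes that fell was in a gene list. *GPP2*, a glycerol phosphatase, had 31.9, 33.3 and 27.8 CPM in GBy225, against 72.9, 78.4 and 92.5 CPM in GBy557 (log2 fold change -1.40, SE 0.18, adjusted p = 0.0338 by edgeR). *MPS2*, of spindle pole body duplication, had 25.1, 30.7 and 28.5 CPM in GBy225 against 74.2, 73.5 and 64.9 CPM in GBy557. *TUB3*, an alpha-tubulin, had 51.5, 46.1 and 34.6 CPM in GBy225 against 99.8, 102.6 and 120.6 CPM in GBy557. The GBy225 libraries were lower in each of these. An antisense RNA gene overlaps 120 bases of *TUB3*. *SLI15*, a chromosomal passenger protein, had 39.2, 47.4 and 42.7 CPM in GBy225 against 102.3, 85.8 and 89.8 CPM in GBy557. *TOS4*, a protein with a forkhead-associated domain, had 44.2, 37.8 and 53.8 CPM in GBy225 against 93.4, 111.0 and 108.1 CPM in GBy557. In each of these 5 the highest GBy225 library was below the lowest GBy557 library, and their log2 fold changes were -1.40, -1.33, -1.29, -1.10 and -1.20. With replicate numbers as a block all 5 were just over the threshold (adjusted p of 0.0508 to 0.0517), and 3 genes fell in that fit in place of 7, while 12 rose in place of 10. The block added *UTH1*, a cell wall and mitochondrial protein gene, on the lower side (log2 fold change -1.46, adjusted p = 0.0301). It added YER067C-A, *RGI1* and *DPA10* (adjusted p of 0.0334, 0.0334 and 0.0474) and *TSL1* on the higher side and *CAR1* on the lower. YDR015C, not in the RefSeq annotation, fell by 1.49 on the log2 scale, and had an adjusted p of 0.0508 with the block. It is next in number to *HED1* (YDR014W-A), a meiosis-specific recombination gene, which had 131.8, 110.1 and 282.1 CPM in GBy225 against 434.8, 366.4 and 406.3 CPM in GBy557.

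*RRT5* (YFR032C, chromosome VI, 222090 to 222959) had few or no counts in GBy225. It had 3, 0 and 0 counts in GBy225, against 47, 66 and 231 counts in GBy557, or 1.37, 0 and 0 CPM against 30.1, 32.6 and 37.6 CPM. Its level in GBy557 was 63.2 times that in GBy225 (exact 95% interval 21.5 to 308, for counting error only), with an adjusted p of 0.0227 by edgeR. DESeq2 gave *RRT5* no adjusted p. *RRT5* was too low in mean count for the rule on named genes and was chosen after its values were seen. It was also the single gene called when GBy225 replicate 1 was left out.

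Of 180 tested mRNAs that the m6A-seq of the study listed with a methylation-dependent window, 48 (26.7%) had all 3 GBy225 libraries above GBy557 and 13 (7.22%) had them below, against 11.2% and 13.4% of all genes. *MUP1*, *IST2* and *SPI1* rose with the 6 libraries and none fell. Without replicate 3, 31 rose and 9 fell (17.2% and 5%, against 5.38% and 6.41% of all genes). The median log2 fold change was 0.13 with the 6 libraries and 0.17 without replicate 3. The list rests on wild-type and *ime4-cat* samples of the same study and is longer than the set of methylated mRNAs that the paper reports. The call was made there on methylation, not on a change in mRNA level. A window also needed a minimum read depth, so all genes tested are not a set matched for expression. The 9 that fell included *MEI4*, *REC114* and *REC102*, genes for double-strand breaks. Among those that rose were *GAP1*, *DUR3*, *CYS3* and *HOM6*, which are in the lists of nitrogen, sulfur or amino acid genes.

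As a check of which strain is *ime4-cat*, the fold changes were set beside those of polysomal mRNA of GBy225 over GBy222. GBy222 is wild type at both genes, and for these polysome libraries titles and strain numbers agree. Across 5493 genes Pearson's r was 0.71 and Spearman's rho 0.66 (a description over genes, which are not independent replicates, and both sets hold GBy225 cells). *RME1* in polysomes was at 163.7, 171.5 and 160.5 CPM in GBy225 against 73.4, 81.4 and 89.2 CPM in GBy222, and its log2 fold change of 1.02 had the sign of the total RNA value. *IME2* (-1.64 in polysomes), *DMC1* (-1.73) and *MET17* (1.55) also kept their signs. Taken alone over the GBy557 mean, GBy225 replicates 1, 2 and 3 gave r of 0.66, 0.75 and 0.24. The titles, under which the total RNA comparison is wild type over *ime4-cat*, would set opposite genotype orders side by side here. The 2 sets of fold changes ran in the same direction. The check cannot tell whether GBy557 carries the *RME1* site change or is wild type at both genes. Either would stand opposite *ime4-cat* in the same order. The genotype given to GBy557 was not tested.

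**Figure D4:**
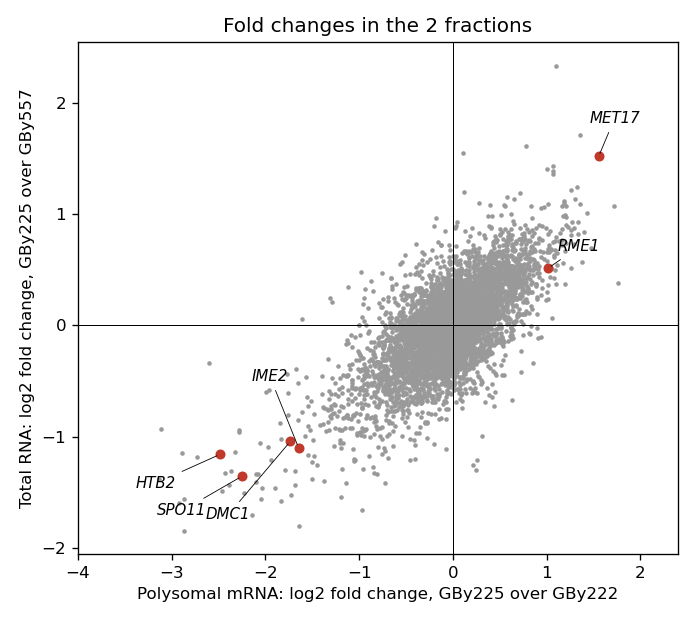
Log2 fold change of total RNA, GBy225 over GBy557 with all 6 libraries (vertical), against that of polysomal mRNA, GBy225 over GBy222 (horizontal), 1 point per gene tested in both. Named genes are in red. Points run from the lower left, with *HTB2*, *SPO11*, *DMC1* and *IME2*, to the upper right, with *RME1* and *MET17* (r = 0.71 over 5493 genes).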

How the data were processed

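Counts of reads per gene were deposited by the authors without normalization, in one table per library for 7126 genes and 5 closing entries. Reads were aligned to sacCer3 with TopHat2, per the submitters' processing notes, and the counting program and strand setting are not given in the sources used here. The kit is NEBNext Ultra in the methods and another maker's in the labels. The closing entries, left out of library sizes and tests, were mostly alignments that were not unique (57.5% to 78.8% of all entries) or on no feature (12% to 23.5%), with 0.0432% to 0.0703% ambiguous. Intervals cover counting error only.

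Groups followed strain numbers, because titles conflict. Genes that passed filterByExpr entered edgeR 4.0.16 in R 4.3.3 with TMM factors (glmQLFit and glmQLFTest, strain as the only term, Benjamini-Hochberg over all genes tested, threshold 0.05). RefSeq R64 gave symbols for 6048 genes, sequences and positions counted from 1. The fit was tested on simulated data. Replicates differed by more than sampling noise (chi-square per degree of freedom 1.83 to 22.5). Deviations of same-numbered libraries of the 2 strains correlated at 0.42, 0.17 and 0.13 over 5175 genes. Unlike numbers gave 0.18 (GBy225 replicate 3 with GBy557 replicate 2), 0.13 (GBy225 replicate 2 with GBy557 replicate 3) and otherwise negative values. Pairing by number thus stood out for replicate 1 only. The fit with numbers as a block is an alternative, and its value is given where it changes a call. P-values measure the spread between these biological replicates, as the methods call them.

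Named genes were *RME1*, *IME4*, *IME1*, *IME2*, *NDT80*, *ACT1*, *PGK1*, up to 12 largest increases and decreases among called genes with at least 50 mean normalized counts and no overlap between strains, and from each list up to 4 members of lowest p and the most abundant. Other genes named were chosen after their values were seen. The comparison and gene lists were chosen with earlier results of these data known. Alternatives were DESeq2 1.42.0, limma 3.58.1, other normalizations and filters, a fit with the polysome libraries, and each library left out. After the data were seen, voom with quality weights and a minimum of 200 counts were added. Groups of 3 were not tested for outliers. Figures used matplotlib 3.10.9.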

Additional observations from a re-analysis of the deposited data

How the results depend on the processing

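The counts of called genes depended on single libraries and on the tool. Leaving out each library in turn gave 0 to 321 genes higher and 0 to 382 lower in GBy225, with both highest values without GBy225 replicate 3. Without GBy225 replicate 1, *RRT5* alone was called (adjusted p = 0.0486) and 1094 genes had an unadjusted p under 0.05. Without GBy225 replicate 2, or without GBy557 replicate 1, 2 or 3, edgeR called no gene, while 791, 872, 561 and 479 genes had an unadjusted p under 0.05. With all 6 libraries DESeq2 called 190 higher and 138 lower, with no adjusted p for 1944 genes. The fit of 4 groups, which shares its spread with the polysome libraries, called 157 higher and 186 lower. The study's thresholds, an unadjusted p under 0.01 and a log2 fold change beyond 0.8, gave 60 higher and 105 lower, and at an adjusted p under 0.01 there were 0 of each. Chosen after the data were seen, voom with quality weights, which gave GBy225 replicate 3 a weight of 0.195, called 518 higher and 466 lower, 627 of them among the 703 genes called without that library. With the replicate block 12 genes were higher and 3 lower, and 9 of the 17 genes kept their call. Other scalings, filters and limma-trend gave 8 to 11 higher and 5 to 7 lower.

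*RME1* kept its sign in every alternative (log2 fold change 0.33, with *PGK1* as the only reference, to 0.63). It passed the threshold with voom and quality weights alone (0.56, adjusted p = 0.014), over a range of adjusted p to 0.729. Leaving out each library gave 0.41 to 0.63.

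Among the genes chosen by the naming rule, the sign turned for 6, none of them called. The HSP26 log2 fold change was 0.0050 with DESeq2 size factors, 0.0171 with TMM without ribosomal protein genes, 0.0050 with DESeq2, 0.0955 with voom, and -0.0663 to 0.10 over the libraries left out. The AXL1 log2 fold change was -0.0234 without normalization factors, -0.0302 with voom and -0.10 to 0.19 over the libraries left out. The STE5 log2 fold change was -0.15 with voom and -0.28 to 0.49 over the libraries left out, and the SAG1 log2 fold change was -0.0416 with voom and -0.0831 to 0.47 over them. Over the libraries left out the FUS1 log2 fold change was -0.0186 to 0.56, and the HTA1 log2 fold change -0.23 to 0.0561. The causes were not tested. Low counts limit *RRT5* and *SPS4*.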

Other observations

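Beyond the gene lists, without GBy225 replicate 3 the genes with the largest changes and at least 50 mean normalized counts included mRNAs that no list held, chosen here after their values were seen. *RNP1*, an RNA-binding protein gene, had 101.7, 95.4 and 487.5 CPM in GBy225 against 487.9, 503.0 and 557.4 CPM in GBy557 (log2 fold change -2.39 without replicate 3). YLL047W had 67.9, 46.7 and 245.6 CPM in GBy225 against 289.7, 315.6 and 328.5 CPM in GBy557 (-2.43). On the higher side, *RGI1* had 269.0, 217.1 and 162.7 CPM in GBy225 against 127.9, 65.6 and 56.8 CPM in GBy557 (1.59; with all 6 libraries, adjusted p = 0.0334 with the replicate block), and *ERG3*, of ergosterol synthesis, had 235.3, 360.5 and 201.1 CPM in GBy225 against 108.1, 124.8 and 109.9 CPM in GBy557 (1.38). In these 2 higher genes all GBy225 libraries were above all GBy557 libraries.

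Total RNA libraries with the strain number of GBy222, wild type at both genes, have titles that name *rme1-10* and polysomes, so they were put in no group. Normalized together with the 6 libraries, and with depths of 650668, 1751408 and 1592441 counts, they had 109.6, 110.1 and 89.1 CPM of *RME1*, 722.6, 755.0 and 831.2 CPM of *IME1*, and 749.3, 710.1 and 787.6 CPM of *IME2*. *MET17* was at 459.0, 507.5 and 477.9 CPM in them and *RRT5* at 14.8, 10.2 and 19.7 CPM.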
